A study of Rattus norvegicus with 14 samples.

Results

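The genes of the prostasin and matriptase protease cascade, together with the hairless gene Hr, were measured in skin of male CD hairless rats. The 6 genes were Prss8, St14, Spint1, Spint2, Scnn1a and Hr. They were found by matching the accession of each array probe, without its version, to the rat RefSeq gene table. All 6 were on the array, each with 1 probe, and all 6 were kept among the 18609 genes measured. Every one of these probes was well above background on all 14 arrays, so none of the 6 owed its place to 1 group only.

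The exposed group was 6 rats exposed at 94 GHz, and the controls were 8 sham-exposed rats. Exposure ran for 3 h per day on 3 days per week over 5.5 months. All animals were male and of the same hairless stock, and skin taken at the end was hybridised to 1 array per animal. The allele that makes these animals hairless, and their age, are not given in the sources used here. No haired rats were part of the comparison, so the level of these genes relative to haired skin could not be measured. The rats were housed in pairs with cage mates not named, so p-values treat animals as independent.

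Prostasin, encoded by Prss8, is a serine protease anchored to the outer cell surface by a lipid, and matriptase, encoded by St14, is a serine protease that spans the membrane. In the epidermis the pair act on each other in a proteolytic cascade that is needed for the skin barrier. The Kunitz-type inhibitors HAI-1 (Spint1) and HAI-2 (Spint2) hold both enzymes in check. Scnn1a encodes the alpha subunit of the epithelial sodium channel, which prostasin activates through cleavage of the gamma subunit. In mice, a Prss8 mutation gives the frizzy coat, and a Prss8 mutation was also described in a hairless rat stock. Hr encodes a nuclear corepressor needed for the hair cycle, and its loss gives the classical hairless mouse.

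Values are log2 signals relative to the 75th percentile of the same array, so a probe at 0 sits at that percentile and a step of 1 is a doubling of signal. Levels of different probes are not comparable, because probes differ in how well they bind, so only differences between animals are read for each gene. The 75th percentile lay between 1075 and 1966 scanner units in exposed arrays and between 804.5 and 1967 in sham arrays. The lowest was sham animal 6, which also had the lowest array weight, 0.127, in limma's array weighting. The arrays lay on 4 slides. Both groups were present on slide 3 (3 exposed, 3 sham) and on slide 4 (1 exposed, 3 sham), whereas slide 2 carried exposed arrays alone and slide 1 sham arrays alone. With slide as a fixed block, the difference between the groups therefore comes from slides 3 and 4 alone.

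The labelled tissue was checked against marker genes. All 9 measured basal keratinocyte markers, all 8 suprabasal markers and all 9 fibroblast markers were well above background on all 14 arrays. Among them were the basal keratin Krt14, the suprabasal keratin Krt1 and the collagen gene Col1a1. Of all genes, 16502 of 18609 met the same criterion. So did 13 of 14 measured skeletal muscle markers, and all 7 adipocyte and 9 sebaceous markers measured. These counts therefore show detection and cannot tell skin from other tissue. Hair follicle markers varied widely, and 14 of the 15 measured had a higher mean in exposed skin, with 0 past the test. Their mean level, relative to the 14-animal mean, ran from -1.46 to 1.65 with a median of 0.57 in exposed skin, and from -1.66 to 1.40 with a median of -0.67 in sham skin. Skeletal muscle markers, 14 of 14 measured with a higher mean in exposed skin and 0 past the test, ran from -1.67 through a median of 0.47 to 4.39 in exposed skin and from -2.44 through a median of -1.08 to 3.15 in sham skin. Over all genes, 43.0% had a higher mean in exposed skin. The muscle count depended on the slide and on a single animal. The muscle markers were 3 higher and 11 lower within slide 3, and 11 higher and 3 lower without exposed animal 2 or with slide as a block. The hair follicle markers were 14 higher and 1 lower within slide 3. They were 15 higher and 0 lower with slide as a block and within slide 4, which had 1 exposed animal. Their count fell to 11 higher and 4 lower without exposed animal 3 or without exposed animal 6, and to 10 higher and 5 lower with array weights. None of the 6 genes passed with the hair follicle, skeletal muscle or basal keratinocyte score as a covariate. In whole skin, fewer cells of a type and less RNA per cell cannot be told apart.

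Exposed and sham skin did not differ past the test in any of the 6 genes. With limma's moderated test over all 18609 genes and Benjamini-Hochberg adjustment, 0 of the 6 had an adjusted p under 0.05, where the share over all genes was 0%. Before adjustment, again 0 of the 6 had a p under 0.05, against 3.42% of all genes. St14, Spint1 and Spint2 had a higher mean in exposed skin, and Prss8, Scnn1a and Hr a lower one. All 6 adjusted p-values in limma were 0.9996. The groups overlapped for each of the 6 genes, and over all genes 0.0322% had groups that did not overlap.

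Among the proteases, the Prss8 signal ran from 2.33 through a median of 2.59 to 2.84 in exposed skin, and from 2.41 through a median of 2.73 to 3.14 in sham skin. The highest value of all was sham animal 6 and the lowest was exposed animal 5, and 5 of 6 exposed animals lay inside the sham range. Prss8 averaged 2.59 ± 0.18 in exposed skin, against 2.72 ± 0.24 in sham skin (SD, n = 6 and 8). The difference was -0.13 ± 0.12 (SE), with a 95% interval from -0.38 to 0.12, which as a ratio of exposed to sham is 0.766 to 1.09. The interval includes a ratio of 1. The sign turned within slide 3, where the difference was 0.085 ± 0.18 (SE), and was -0.25 ± 0.29 (SE) within slide 4 and -0.025 ± 0.14 (SE) with slide as a block. Without sham animal 6 the difference was -0.074 ± 0.10 (SE). With the basal keratinocyte score as a covariate it was -0.24 ± 0.11 (SE), with a limma adjusted p of 0.929 and an unadjusted p of 0.0471.

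St14 was close to equal in the groups. It ran from 2.87 through a median of 2.95 to 3.32 in exposed skin and from 2.85 through a median of 2.98 to 3.23 in sham skin. Exposed animal 3 and sham animal 2 stood above all others, 1 in each group, and the remaining 12 animals lay close together. The means were 2.99 ± 0.17 in exposed skin, against 2.99 ± 0.11 in sham skin (SD, n = 6 and 8). The difference was 0.0042 ± 0.081 (SE), and its 95% interval as a ratio was 0.89 to 1.13. Within slide 3 it was 0.082 ± 0.14 (SE) and within slide 4 0.028 ± 0.24 (SE). Without exposed animal 3 it was -0.061, of the other sign.

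**Figure D1:**
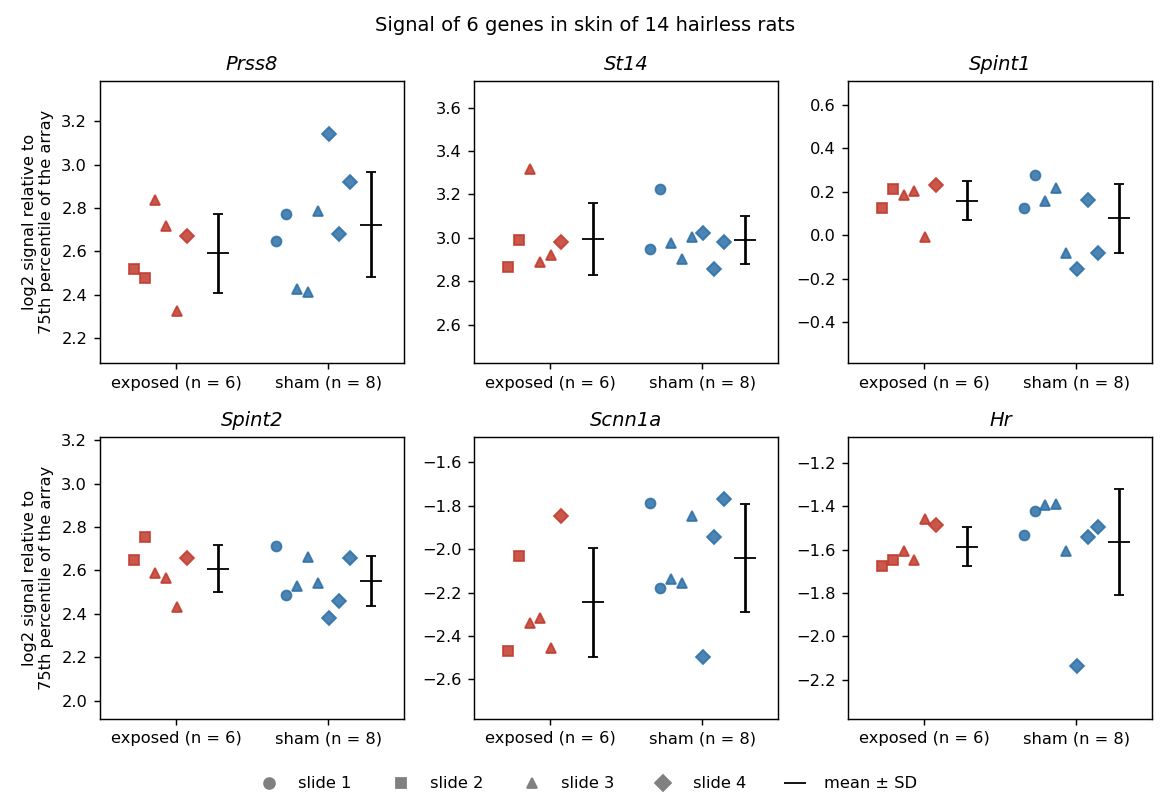
Log2 signal relative to the array's 75th percentile of the 6 genes, with 1 point per animal, exposed at left and sham at right, marker shape for the slide, and the mean ± SD beside each group; every panel spans the same height on the log2 scale. The groups overlap in all 6 panels, and sham animal 6 on slide 4 is the lowest point for Hr (-2.14) and the highest for Prss8 (3.14).

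Among the inhibitors, Spint1 ran from -0.010 through a median of 0.20 to 0.23 in exposed skin and from -0.15 through a median of 0.14 to 0.28 in sham skin, and all 6 exposed animals fell inside the sham range. Among the exposed animals 5 lay close together and exposed animal 5 was lower, whereas 3 sham animals (5, 6 and 8) lay below 0. The means were 0.16 ± 0.091 in exposed skin, against 0.078 ± 0.16 in sham skin (SD, n = 6 and 8), with a difference of 0.081 ± 0.080 (SE). The 95% interval was 0.939 to 1.19 as a ratio. The difference was 0.029 ± 0.13 (SE) within slide 3, 0.26 ± 0.26 (SE) within slide 4 and 0.048 ± 0.072 (SE) without sham animal 6.

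Spint2 had the narrowest spread of the 6 genes. It ran from 2.43 through a median of 2.62 to 2.76 in exposed skin and from 2.38 through a median of 2.53 to 2.71 in sham skin, and the highest and lowest of the 14 animals were 1.30-fold apart. Exposed animal 2 was the highest and sham animal 6 the lowest. The means were 2.61 ± 0.11 in exposed skin, against 2.55 ± 0.11 in sham skin (SD, n = 6 and 8), with a difference of 0.054 ± 0.071 (SE) and a 95% interval of 0.935 to 1.15 as a ratio. The sign turned within slide 3, at -0.049 ± 0.11 (SE), and was positive within slide 4, at 0.16 ± 0.25 (SE). In the balance of the 2 proteases over the 2 inhibitors, each gene taken relative to its 14-animal mean, exposed animals ran from -0.24 through a median of -0.089 to 0.21. Sham animals ran from -0.27 through a median of 0.053 to 0.49, the last being sham animal 6, so the ranges overlapped over most of their length.

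Scnn1a had the largest difference of the 6 in size. It ran from -2.47 through a median of -2.33 to -1.85 in exposed skin and from -2.49 through a median of -2.04 to -1.77 in sham skin. Exposed animals 1, 3, 4 and 5 lay low, and exposed animals 2 and 6 lay among most of the sham animals. The lowest value of all was again sham animal 6. The means were -2.24 ± 0.25 in exposed skin, against -2.04 ± 0.25 in sham skin (SD, n = 6 and 8). The difference was -0.21 ± 0.13 (SE), with a 95% interval from -0.49 to 0.075, or a ratio of 0.714 to 1.05 (limma, adjusted p = 0.9996, unadjusted p = 0.14).

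The slides did not give the same picture for Scnn1a. On slide 3 the exposed animals lay between -2.46 and -2.32 and the sham animals between -2.15 and -1.85, without overlap. It was the only 1 of the 6 genes whose groups were apart there, where 6.78% of all genes were, and 3 animals against 3 cannot go below an exact two-sided p of 0.1. The difference on slide 3 was -0.33 ± 0.13 (SE). On slide 4 the single exposed animal was at -1.85 and the 3 sham animals lay between -2.49 and -1.77, with a difference of 0.22 ± 0.38 (SE), of the other sign. Without sham animal 6 the difference was -0.27 ± 0.12 (SE), with a limma adjusted p of 0.576 and an unadjusted p of 0.0364.

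Scnn1a is 1 of the subunits that make up the epithelial sodium channel. The beta subunit gene Scnn1b averaged -2.10 ± 0.18 in exposed skin, against -2.10 ± 0.51 in sham skin (SD, n = 6 and 8). The gamma subunit gene Scnn1g averaged -1.40 ± 0.27 in exposed skin, against -1.37 ± 0.30 in sham skin (SD, n = 6 and 8). Neither passed the test, with differences of 0.00075 ± 0.21 (SE) and -0.029 ± 0.15 (SE). These subunits were chosen as the partners of Scnn1a after their values were seen.

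Hr varied little in exposed skin and owed most of its spread in sham skin to 1 animal. It ran from -1.67 through a median of -1.63 to -1.46 in exposed skin and from -2.14 through a median of -1.52 to -1.39 in sham skin. Sham animal 6 was at -2.14, and the 7 other sham animals lay between -1.60 and -1.39. The means were -1.59 ± 0.090 in exposed skin, against -1.56 ± 0.24 in sham skin (SD, n = 6 and 8), with a difference of -0.022 ± 0.11 (SE) and a 95% interval of 0.841 to 1.15 as a ratio. Without sham animal 6 the difference was -0.10 ± 0.058 (SE), with a limma adjusted p of 0.634. It was -0.11 ± 0.12 (SE) within slide 3, 0.24 ± 0.36 (SE) within slide 4, which holds sham animal 6, and 0.0068 ± 0.14 (SE) with slide as a block.

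**Figure D2:**
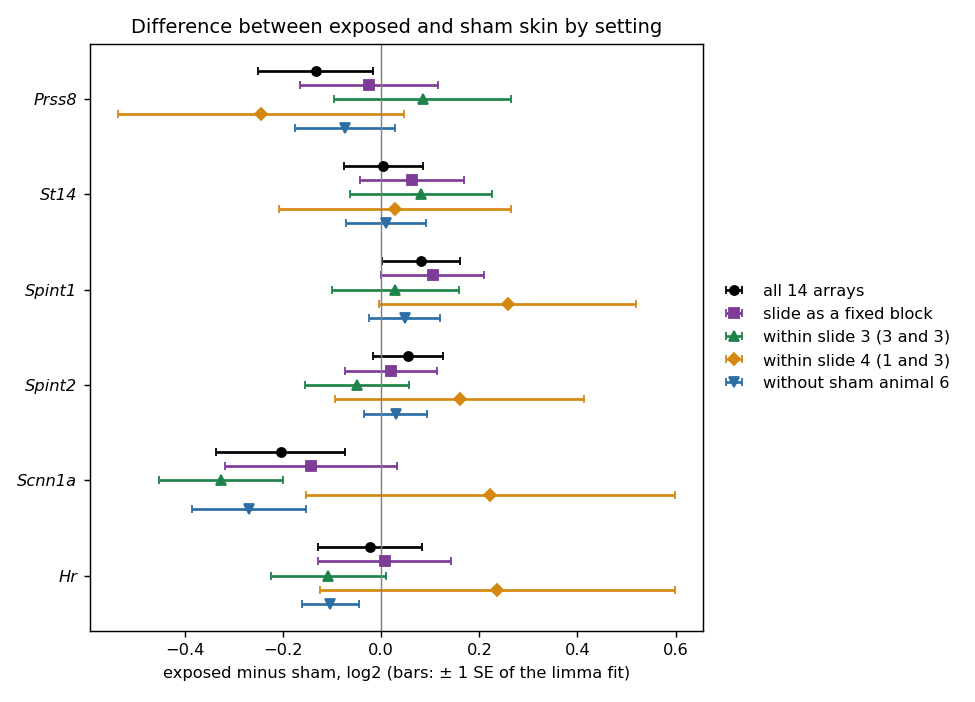
Exposed minus sham difference in log2 signal of each gene, with bars of ± 1 SE, for all 14 arrays, slide as a fixed block, each of the slides that held both groups, and without sham animal 6. The difference with slide as a fixed block comes from slide 3 and slide 4 alone, so it is not separate from theirs. Most bars reach or cross 0, and the difference changes side between slide 3 and slide 4 for Prss8, Spint2, Scnn1a and Hr, as Scnn1a shows with -0.33 against 0.22.

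Repeated spots on each array separate the measuring error from the differences between animals. The Prss8 probe was printed on 10 spots per array, and the SD over those spots had a median of 0.026 and a highest value of 0.043. The SD over the 14 animals was 0.22, which is 8.56 times the median spot SD, so the animals differed in Prss8 by far more than its spots did. Scnn1a was also printed on 10 spots, 1 of which was left out as an outlier on 1 array, with a median spot SD of 0.070 and an SD over animals of 0.26. The remaining 4 genes had 2 spots each, with median spot SDs from 0.028 to 0.040. Their spots disagreed more on single arrays, up to 0.33 for Spint1 on exposed animal 6 and 0.27 for Spint2 on sham animal 7. Spots of 1 array share its RNA and labelling, so this error does not cover those steps.

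Among the 18609 genes, ranked by their SD over the 14 animals from low to high, Spint2 stood at percentile 8.83, St14 at 14.9, Spint1 at 16.9, Hr at 34.3, Prss8 at 44.7 and Scnn1a at 55.1. The inhibitors and matriptase were thus on the steadier side and Scnn1a near the middle. The SD of a probe also depends on its brightness and its number of spots. The slides were compared at fixed group with limma's F-test. None of the 6 genes passed, with unadjusted p from 0.302 to 0.809 and adjusted p of 0.9998 in limma, and the share over all 18593 genes tested was 0%. At an unadjusted p under 0.05 that share was 2.69%.

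**Figure D3:**
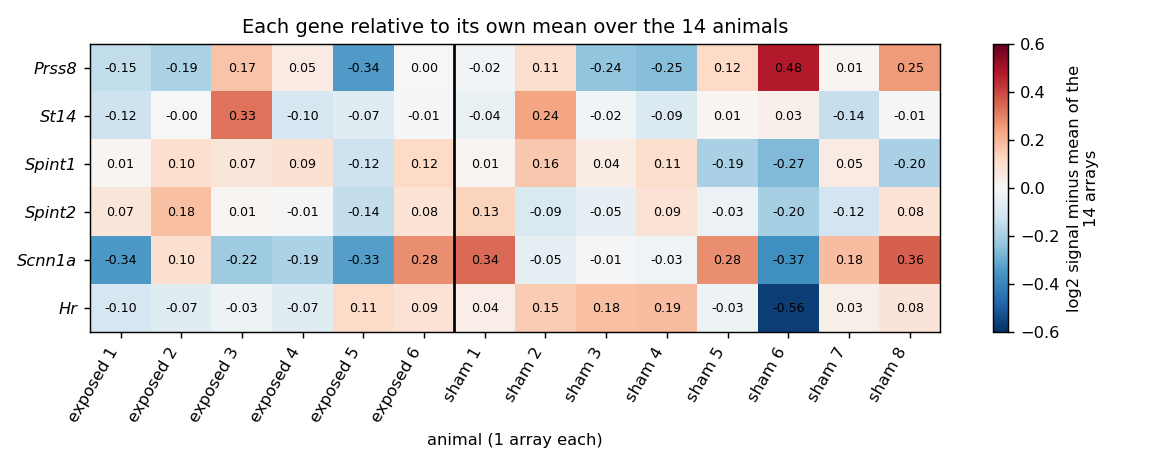
Log2 signal of each gene in each animal minus that gene's mean over the 14 animals, exposed animals left of the line and sham animals right of it; colour and printed number give the same value. Sham animal 6 departs most, with Prss8 high and Spint1, Spint2, Scnn1a and Hr low. For Scnn1a (-0.37) and Spint2 (-0.20) it departs little more than sham animal 8 (0.36) and exposed animal 2 (0.18). St14 departs in exposed animal 3 and sham animal 2.

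Sham animal 6 was the lowest of all 14 animals for 4 of the 6 genes and the highest for 1. Its array also had the lowest signal, so an effect of the animal and an effect of the array cannot be told apart there. It also had the highest suprabasal score, 0.24, and the lowest adipocyte score, -0.97, of the 14 animals. Its basal keratinocyte score, -0.139, was the lowest as well, but nearly equal to that of exposed animal 6, -0.138. Its hair follicle score was -1.31, above those of exposed animal 1 and sham animal 1. The part of these in its values was not tested.

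Whether the 6 genes varied together over the 14 animals was asked for all 15 pairs, and their relation with 4 marker scores for 24 more. None of these 39 relations passed after Benjamini-Hochberg adjustment. The closest among the genes by Pearson's r was Prss8 against Hr, with r of -0.64 (permutation p = 0.0154, adjusted p = 0.258) and Spearman's rho of -0.46 (permutation p = 0.0978, adjusted p = 0.545). It was -0.74 with values centred by slide and -0.89 within slide 3 (n = 6). Over the 14 animals r depended on few of them, being -0.12 without sham animals 4 and 6 and -0.26 without sham animal 6. Sham animal 6 was not on slide 3, so the value there does not include it. The proteases Prss8 and St14 gave r of 0.42 (permutation p = 0.14, adjusted p = 0.439), or 0.56 with values centred by slide and 0.11 with quantile normalization, and rho of 0.56 (permutation p = 0.0395, adjusted p = 0.308). That rho was the largest in size among the 15 pairs. The inhibitors Spint1 and Spint2 gave r of 0.39 (permutation p = 0.165, adjusted p = 0.442) and rho of 0.35 (permutation p = 0.216, adjusted p = 0.675). That value was 0.32 with values centred by slide and 0.15 without sham animal 6.

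By Pearson's r, the largest coefficients with marker scores were those of Hr with keratinocyte markers. Against the suprabasal score r was -0.63 (permutation p = 0.00973, adjusted p = 0.258) and rho was -0.64 (permutation p = 0.0151, adjusted p = 0.307). Against the basal score r was 0.57 (permutation p = 0.0199, adjusted p = 0.258) and rho was 0.56 (permutation p = 0.0395, adjusted p = 0.308). The values centred by slide were -0.58 and 0.53, and without the 2 arrays farthest from the median score they were -0.62 and 0.58. Without sham animal 6 they were -0.62 and 0.44, and with array signal as a covariate -0.29 and 0.70. Both depended on the scaling of the arrays: with quantile normalization r was -0.032 against the suprabasal and 0.88 against the basal score. Spint1 against the suprabasal score gave r of -0.47 (permutation p = 0.0922, adjusted p = 0.43) and the same rho as Hr, -0.64 (permutation p = 0.0158, adjusted p = 0.307). Its r was -0.23 with quantile normalization. St14 against the hair follicle score gave r of 0.48 (permutation p = 0.0836, adjusted p = 0.43) and rho of 0.35 (permutation p = 0.224, adjusted p = 0.675), or 0.49 with values centred by slide and 0.75 with quantile normalization.

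**Figure D4:**
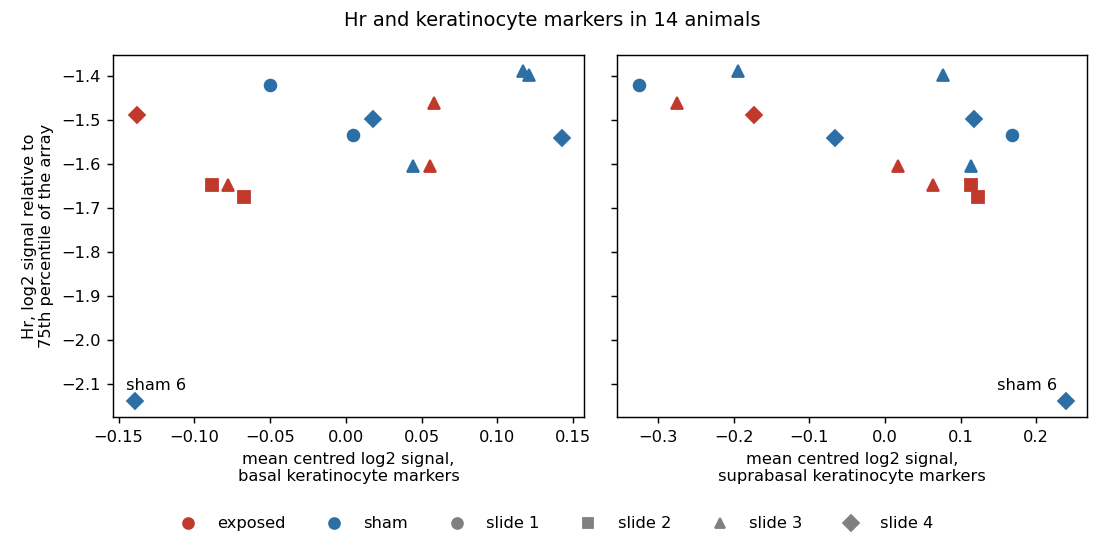
Hr signal on the log2 scale (vertical) against the mean centred log2 signal of basal (left) and suprabasal (right) keratinocyte markers, 1 point per animal, coloured by group and shaped by slide. Pearson's r is 0.57 for the basal and -0.63 for the suprabasal score, the lowest point in both panels is sham animal 6, and neither relation passed the adjusted test.

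The genes whose pattern over the 14 arrays was most like each of the 6 were taken by Pearson's r over 11303 other named genes, as a description. For Prss8 they were Spata33, Peli1 and Rab8a, each with r of 0.86. For St14 they were Kcnk5 (0.89), Sh3bp5l (0.85) and Pigu (0.84). For Spint1 they were Bst1, Tdo2 and Hoga1, each with r of 0.82, and for Spint2 Emc4 (0.86), Nipal2 (0.85) and Mgst1 (0.84). For Scnn1a they were Ubl7 (0.93), Kyat1 (0.90) and Ptk6 (0.87), and these same 3 genes were the first 3 without sham animal 6. For the others fewer stayed among the first 3 without it: Kcnk5 and Sh3bp5l for St14, Spata33 for Prss8, Hoga1 for Spint1 and none for Spint2, where Gstp3, Gpr146 and Chchd3 came first.

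For Hr they were Ephx1, Actn1 and Cchcr1, with r of 0.97, 0.97 and 0.96. Hr had r above 0.7 with 12.3% of the named genes, against 0.389% to 1.48% for the other 5. Without sham animal 6 the share for Hr was 1.30%, against 0.239% to 1.04% for the other 5. Plat (0.90), which encodes tissue plasminogen activator, Enpp2 (0.87) and Actn1 (0.87) then came first. These arrays share their scaling and their tissue makeup, which all such coefficients contain.

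Around the cascade, the substrates, cell-surface partners and junction genes of the proteases were counted. Of 18 listed genes 16 were measured, 3 with a higher and 13 with a lower mean in exposed skin, and 0 passed in either direction. Their median difference was -0.083, where the median over all genes was -0.019 and 43.0% of all genes had a higher mean. Within slide 3 the same genes split 3 higher to 13 lower, and with slide as a block 4 higher to 12 lower. Without sham animal 6 they split 1 higher to 15 lower. Within slide 4, with its 1 exposed animal, they split 9 higher to 7 lower. The members with the smallest p were Mst1r, the receptor of macrophage-stimulating protein, at -0.30 ± 0.14 (SE), and Hgfac, the activator of hepatocyte growth factor, at -0.32 ± 0.19 (SE). Mst1r averaged -4.79 ± 0.32 in exposed skin, against -4.49 ± 0.22 in sham skin (SD, n = 6 and 8). Hgfac was well above background on only 8 of 14 arrays, and its difference was -0.14 without exposed animal 5 and -0.055 with normexp background correction. With normexp that of Mst1r was -0.15.

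Of 12 sodium channel subunits and regulators 9 were measured, 4 with a higher and 5 with a lower mean, and 0 passed. Their median difference was -0.029, against -0.019 over all genes, of which 43% had a higher mean. The mineralocorticoid receptor gene Nr3c2, which mediates the aldosterone signal to the channel, averaged -3.48 ± 0.23 in exposed skin, against -3.28 ± 0.073 in sham skin (SD, n = 6 and 8). Furin, a protease that cuts the channel's alpha subunit inside the cell, averaged 1.47 ± 0.32 in exposed skin, against 1.71 ± 0.21 in sham skin (SD, n = 6 and 8). Their differences, -0.21 ± 0.090 (SE) and -0.24 ± 0.14 (SE), did not pass. Within slide 3 they were -0.014 ± 0.12 (SE) for Nr3c2 and -0.024 ± 0.16 (SE) for Furin, and within slide 4, with its single exposed animal, -0.52 ± 0.23 (SE) and -0.84 ± 0.34 (SE). Without that animal Furin was at -0.14.

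Of 24 other membrane-anchored serine proteases 10 were measured, 3 with a higher and 7 with a lower mean, with a median difference of -0.081. Tmprss11g at -0.18 ± 0.12 (SE) and Prss27 at -0.22 ± 0.17 (SE) had the smallest p and did not pass. The Tmprss11g difference was -0.082 with normexp, and that of Prss27 was -0.13 without exposed animal 5. Hepsin (Hpn) and corin (Corin) were not well above background on any array. Of 18 other protease inhibitors 12 were measured, 4 with a higher and 8 with a lower mean, with a median of -0.070. For both lists the comparison is all genes, of which 43% had a higher mean, with a median difference of -0.019. Spink5, the inhibitor of the epidermal kallikreins, averaged 3.44 ± 0.23 in exposed skin, against 3.62 ± 0.059 in sham skin (SD, n = 6 and 8). Serping1, the inhibitor of complement C1, averaged 4.15 ± 0.19 in exposed skin, against 4.37 ± 0.20 in sham skin (SD, n = 6 and 8). The differences of -0.18 ± 0.088 (SE) and -0.22 ± 0.11 (SE) did not pass, and 0 genes of either list did. With slide as a block they were -0.30 ± 0.10 (SE) for Spink5 and -0.14 ± 0.14 (SE) for Serping1.

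Of 15 partners and targets of the hairless protein 12 were measured, 3 with a higher and 9 with a lower mean, and 0 passed. Their median difference was -0.038, against -0.019 over all genes, of which 43% had a higher mean. The vitamin D receptor gene Vdr, whose protein binds hairless, averaged -2.18 ± 0.13 in exposed skin, against -2.16 ± 0.15 in sham skin (SD, n = 6 and 8). Msx2, a homeobox gene of the hair matrix, averaged -1.43 ± 0.81 in exposed skin, against -2.23 ± 0.71 in sham skin (SD, n = 6 and 8), a difference of 0.80 ± 0.37 (SE). The hair follicle score had a median of 0.57 in exposed and -0.67 in sham skin, and with that score as a covariate the Msx2 difference was 0.40 ± 0.15 (SE). With slide as a block it was 1.26 ± 0.42 (SE). Msx2 had an adjusted p of 0.9996 in limma, and Vdr was named after its value was seen.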

How the data were processed

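Total RNA of 14 skin samples was labelled with Cy3 and hybridised to one-colour Agilent arrays, per the labels' protocols. The scanner files deposited hold spot intensities, background-subtracted by the authors with Agilent Feature Extraction 10.7.3.1 per the file headers. The authors' deposited table holds centred log2 values of 15168 probes, with a normalization not given in the sources used here. It served only as an alternative.

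Of 62976 spots, 4259 control spots and spots marked as outliers were left out. The processed signal was taken to log2, each array's 75th percentile was subtracted, and repeated spots were averaged. Probes well above background on at least 6 arrays were retained (21012 of 30367), the brightest of them standing for its gene. Probes were named by accession through RefSeq of assembly GRCr8 (17990 probes, 59.2%). The array design refers to another build, so no coordinates are given.

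Groups came from the treatment in the labels, and slides from the titles. limma 3.58.1 in R 4.3.3 compared exposed with sham (two-sided, Benjamini-Hochberg). Permutation p-values used 100000 resamples and are two-sided. A marker score is the mean over list genes of the log2 value minus its 14-array mean. The fits were checked on simulated data. The number of arrays limits the precision.

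The members and lists were chosen with earlier results of these data known. Named genes are the 6 members, the 2 genes of smallest p in each of 5 companion lists, and the 3 most alike genes per member. The result of 1 gene under this rule is not reported here. The alternatives covered background, normalization, filters, probe choice, slide, array weights, 3 marker scores as covariates, the authors' values and each array left out. The relations without sham animal 6, and with array signal as a covariate, were added after the data were seen.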

Additional observations from a re-analysis of the deposited data

Results flagged for a closer look

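In 12 groups of animals (6 genes in exposed and in sham skin), 3 values stood apart by Dixon's test, which compares the gap to the nearest animal with the range of the group. Chance alone would mark about 5% of groups. St14 in exposed animal 3 was 3.3177, with a gap of 0.731 of the range of the exposed group. St14 in sham animal 2 was 3.2272, with a gap of 0.552 of the range of the sham group. Hr in sham animal 6 was -2.1376, with a gap of 0.711 of the range of the sham group. The hair follicle scores of exposed animal 3 and sham animal 2 were 1.21 and 1.40. Exposed animal 6 and sham animal 3, with scores of 1.65 and 1.14, had St14 at 2.98 and 2.97. The array of sham animal 6 had the lowest 75th percentile, 804.5 scanner units. Their part in these values was not tested.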

How the results depend on the processing

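No gene passed an adjusted p of 0.05 for exposed against sham in limma under any of 15 other settings or 14 fits without 1 array, and the smallest adjusted p of any gene was 0.186, with array weights. The count at an unadjusted p under 0.05 was 636, between 295 and 2370 in the other settings and between 472 and 1549 without 1 array. For slide at fixed group, 1 gene passed with no filter on dim probes, against 0 with it. None of the 6 genes reached an adjusted p under 0.05 in any setting.

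The sign of the difference turned within slide 3 for Prss8 (0.085) and Spint2 (-0.049), and within slide 4 for Scnn1a (0.22), Hr (0.24) and the companion gene Hgfac (0.14). Hr turned with slide as a fixed block (0.0068) and with the basal keratinocyte score as a covariate (0.074). St14 turned with array weights (-0.032), with the hair follicle score (-0.035) and with the basal keratinocyte score (-0.0069). Leaving out each array gave -0.18 to -0.074 for Prss8, -0.061 to 0.038 for St14, 0.048 to 0.11 for Spint1, 0.025 to 0.090 for Spint2, -0.28 to -0.16 for Scnn1a and -0.10 to 0.0031 for Hr. The cause of these turns was not tested. No paired analysis was possible because replicate numbers here only name the animals. Each of the 6 probes was well above background in every animal, which shows detection but not that low signal left the differences unaffected. The Scnn1a signal ran from 142.8 scanner units in sham animal 6 to 547.2 in exposed animal 6. Normexp background correction with an offset of 50 gave -0.16 for Scnn1a, against -0.21 in the processed signal. The part of background in this was not tested.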
